A study of Homo sapiens with 8 samples.

Results

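GPX2, the gene for a glutathione peroxidase of epithelial cells, was described together with 33 further antioxidant genes of the NRF2 program and of glutathione metabolism in MIV-Luc cells, in order to see whether it moved alone or with them. GPX2 was chosen by its measured difference between knockdown and control cells on these same arrays. The other genes were chosen by their role in the pathway, with earlier results of these data known. All 34 genes were present, as 35 features (SRXN1 has 2) of the 29141 features tested. MIV is the MCF10CA1a line, a metastatic derivative of the MCF10A series of human breast epithelial cells, and MIV-Luc cells also carry luciferase. The cells had been stably transduced with lentiviral pLKO vectors, either with a scrambled hairpin (MIV-Luc-shSCR) or with a hairpin against IL13Rα2, the high-affinity decoy receptor of IL-13 (MIV-Luc-shIL13Rα2#2). Each line was mock-treated (− IL-13) or kept for 16 h with IL-13 at 20 ng/ml (+ IL-13), which gave 4 groups of 2 arrays. Each hairpin was represented by 1 transduced line, so a difference between knockdown and control cells cannot be told apart from a difference between those lines. The methods call the 2 arrays of a group biological replicates, and the arrays of each group are named A and B here.

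NRF2, encoded by NFE2L2, is a transcription factor that is held in the cytoplasm and sent for degradation by KEAP1. When electrophiles or oxidants modify KEAP1, NRF2 accumulates, pairs with small MAF proteins and binds antioxidant response elements in front of genes that make glutathione, supply NADPH and detoxify reactive compounds. GPX2 uses glutathione to reduce hydroperoxides, and it is a known NRF2 target in epithelia. IL-13, the ligand in this study, signals through STAT6.

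The sequence in front of GPX2 is shown because it holds a match to the core of the antioxidant response element. The RefSeq table (GRCh38.p14) gave sequence for 28 of the 34 genes in 39 windows, and AKR1B10, GSR, GSS, HMOX1, PRDX1 and SLC7A11 had no entry. The 250 bases before the GPX2 start, on the minus strand at chr14:64942746-64942995, read 5′ to 3′ as follows, with the match in capitals.
GPX2: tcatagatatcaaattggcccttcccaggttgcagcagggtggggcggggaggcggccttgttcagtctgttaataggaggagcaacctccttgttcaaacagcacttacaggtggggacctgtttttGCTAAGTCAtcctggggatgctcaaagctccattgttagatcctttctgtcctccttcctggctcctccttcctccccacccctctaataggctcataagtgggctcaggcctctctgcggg
The core was searched as TGACNNNGC on both strands, and the GPX2 match lay 122 bases before the start, on the strand opposite to the gene. The matches of the 4 genes printed next, with 16 bases on either side and again 5′ to 3′ along the gene, are shown because GCLM, GSTP1 and ME1 are members with this element whose expression is set against that of GPX2 further on.
GPX2 (chr14:64942843-64942883): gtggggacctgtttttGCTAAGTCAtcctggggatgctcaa
GCLM (chr1:93909440-93909480): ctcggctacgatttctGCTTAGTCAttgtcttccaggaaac
GSTP1 (chr11:67583730-67583770): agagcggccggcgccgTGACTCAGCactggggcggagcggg
ME1 (chr6:83431164-83431204): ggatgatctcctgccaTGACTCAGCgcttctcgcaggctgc
The core was found in 10 windows of 9 genes, namely CBR1, EPHX1, GCLM, GPX2, GSTP1, KEAP1, ME1, PGD and TXNRD1. That was 25.6% of the members' windows, and 10.9% of all 35116 windows of the same length held it. The STAT6 motif, TTC and GAA with 4 bases between them, searched in the same way, was found in front of AKR1C1 and AKR1C2 alone among the members, or 5.13% of their windows, and 5.38% of all windows held it. These are matches of letters, and binding was not measured. Only the 250 bases before each start were searched, so a member without a match here may hold the element elsewhere.

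Values are log2 expression levels from robust multi-array averaging, so that a difference of 1 is a doubling. Arrays of a group correlated at 0.992 to 0.993, and arrays of different groups at 0.988 to 0.993. The hairpin's target gene, IL13RA2, was at 8.07 and 8.09 in shSCR (− IL-13) cells and at 6.52 and 6.34 in shIL13Rα2 (− IL-13) cells, a difference of −1.65 (adjusted p = 0.0105, limma). With IL-13 it was at 9.36 and 9.33 in shSCR cells and at 8.23 and 8.15 in shIL13Rα2 cells, a difference of −1.16 (adjusted p = 0.0241, limma). KRT5, KRT8, CDH1 and EPCAM, which mark epithelial cells, were at or above 9.21 on every array, and PTPRC, DCN and LUM, which mark leukocytes and fibroblasts, were at or below 3.13. Of the endothelial genes, PECAM1 was at 7.71 to 8.82 and CDH5 at 4.40 to 4.83, and the luminal factors GATA3 and FOXA1 were at 7.79 to 8.32 and 6.98 to 7.50, beside ESR1 at 3.76 to 4.40. Without IL-13, PECAM1 was at 8.82 and 8.82 in knockdown cells and at 8.33 and 8.08 in shSCR cells. With IL-13 it was at 8.14 and 8.27 in knockdown cells and at 7.71 and 7.83 in shSCR cells. The lines thus overlapped only over both treatments together, and were apart within each. The part of PECAM1 in the results below was not tested.

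GPX2 stood apart from the other glutathione peroxidases. It was at 5.90 and 5.59 in shSCR (− IL-13) cells, at 4.95 and 5.03 in shSCR (+ IL-13) cells, at 7.22 and 7.53 in shIL13Rα2 (− IL-13) cells and at 7.03 and 6.83 in shIL13Rα2 (+ IL-13) cells. All 4 knockdown arrays lay above all 4 shSCR arrays, and within each line both IL-13 arrays lay below both mock arrays. The level in knockdown cells was 3.09-fold higher without IL-13 (log2 difference 1.63, 95% interval 1.26 to 1.99) and 3.84-fold higher with IL-13 (1.94, 1.58 to 2.31). With IL-13 the level was 1.69-fold lower in shSCR cells (−0.76, −1.12 to −0.39) and 1.36-fold lower in knockdown cells (−0.44, −0.81 to −0.08). The double change, from shSCR (− IL-13) to shIL13Rα2 (+ IL-13), left GPX2 higher by 1.19 (0.82 to 1.55). As GPX2 was selected on these differences, they are a description and carry no test.

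**Figure D1:**
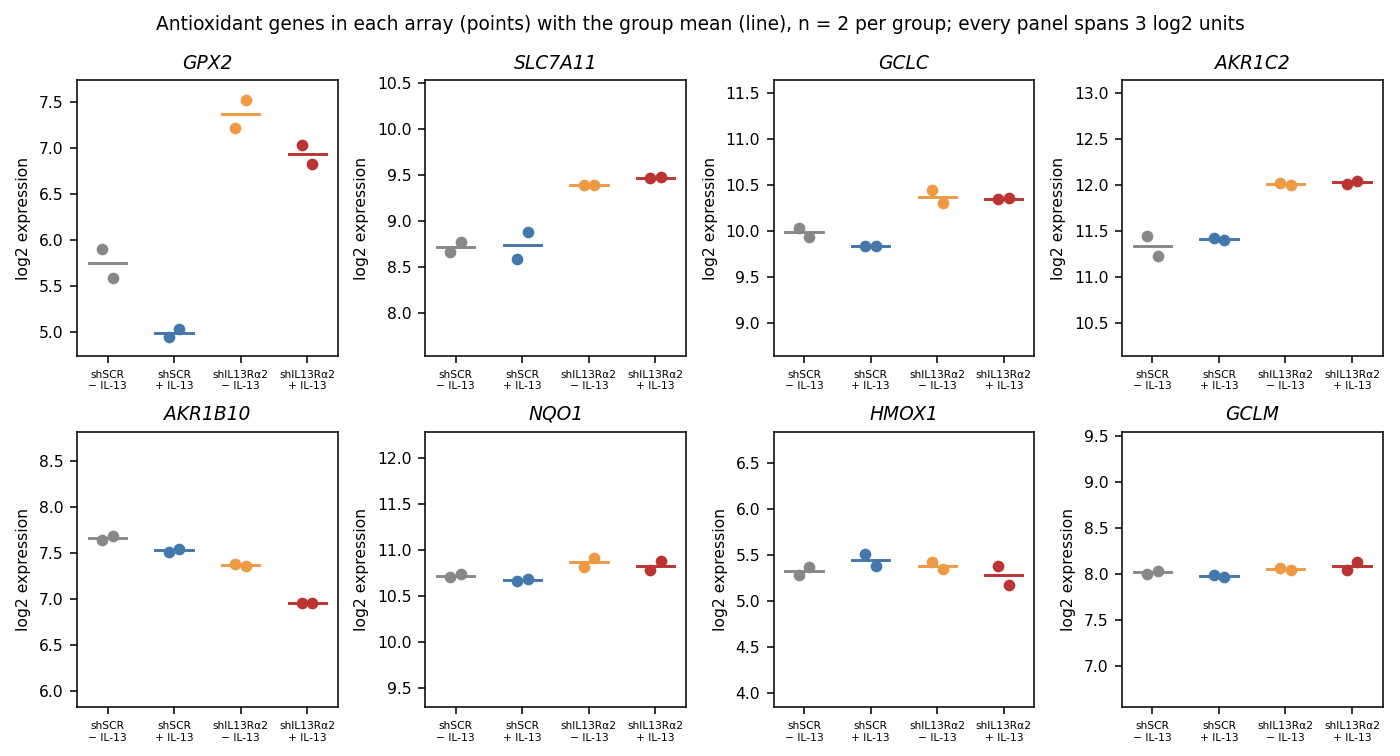
Log2 expression of 8 of the genes on each array (points, n = 2 per group) with the group mean (line), where every panel spans 3 log2 units. GPX2, SLC7A11, GCLC and AKR1C2 have all 4 knockdown arrays above all 4 shSCR arrays, AKR1B10 has them below, and NQO1, HMOX1 and GCLM stay within a narrow band.

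The remaining glutathione peroxidases differed by 0.45 or less between the lines, in either direction, and none passed the adjusted threshold. GPX4, which reduces lipid hydroperoxides in membranes, was at 7.08 and 6.79 in shSCR (− IL-13) cells and at 6.40 and 6.58 in knockdown (− IL-13) cells, and its difference of −0.45 did not pass (adjusted p = 0.462, limma). With IL-13 its values were 7.25 and 6.87 in shSCR cells and 6.90 and 6.91 in knockdown cells, which overlap. GPX3, the secreted plasma enzyme, differed by 0.01 without and by −0.02 with IL-13 between the lines, and GPX8, of the endoplasmic reticulum, by 0.10 and −0.01. GPX1, the cytosolic enzyme of most tissues, differed by −0.13 and 0.34, with replicates as far apart as 6.64 and 7.20 in one group.

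Among the genes that make and recycle glutathione, the cystine importer and the catalytic subunit of the first enzyme were higher in knockdown cells and the other members differed by 0.23 or less. SLC7A11, the cystine/glutamate antiporter that brings in the limiting building block, was at 8.66 and 8.76 in shSCR (− IL-13), at 8.58 and 8.88 in shSCR (+ IL-13), at 9.38 and 9.39 in knockdown (− IL-13) and at 9.46 and 9.47 in knockdown (+ IL-13) cells. The lines did not overlap, and the IL-13 difference was 0.02 in shSCR and 0.08 in knockdown cells. The difference was 0.67 without IL-13 (95% interval 0.38 to 0.96, adjusted p = 0.193, limma) and 0.74 with it (0.45 to 1.03, adjusted p = 0.164, limma). Averaged over both treatments, a comparison added after the data were seen, SLC7A11 rose by 0.71 (SE 0.09, adjusted p = 0.0229, limma). That call held without array B of shSCR (+ IL-13), at an adjusted p of 0.0470, and was lost on leaving out any of the other 7 arrays, with an adjusted p of up to 0.117 and a difference of 0.63 to 0.73.

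GCLC, the catalytic subunit of glutamate-cysteine ligase, was at 10.03 and 9.94, 9.84 and 9.83, 10.45 and 10.30, and 10.35 and 10.36 in the same order of groups. The lines did not overlap, and the smallest gap between them was between 10.03 and 10.30. The difference was 0.39 without IL-13 (95% interval 0.14 to 0.63, adjusted p = 0.352, limma) and 0.52 with it (0.27 to 0.76, adjusted p = 0.278, limma), and 0.45 averaged over both (adjusted p = 0.0615, limma). GCLM, the regulatory subunit of the same enzyme and the carrier of a response element match, was at 7.97 to 8.04 in shSCR cells and at 8.04 to 8.13 in knockdown cells. These 2 ranges touch without overlapping, and the differences of 0.03 (−0.20 to 0.26) and 0.10 (−0.13 to 0.34) have intervals that hold 0. GSS, which joins glycine to complete glutathione, differed by −0.23 and −0.15, and GSR, which reduces oxidised glutathione, by 0.06 and −0.00, without and with IL-13.

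The aldo-keto reductases, which reduce aldehydes and ketones with NADPH and include some of the most responsive NRF2 targets in human cells, went both ways. AKR1C2, a hydroxysteroid dehydrogenase, was at 11.45 and 11.24 in shSCR (− IL-13), at 11.42 and 11.41 in shSCR (+ IL-13), at 12.03 and 12.00 in knockdown (− IL-13) and at 12.02 and 12.05 in knockdown (+ IL-13) cells. The knockdown arrays were all higher, by 0.67 without IL-13 (95% interval 0.42 to 0.93, adjusted p = 0.144, limma) and by 0.62 with it (0.36 to 0.87, adjusted p = 0.192, limma). Averaged over both treatments AKR1C2 rose by 0.65 (SE 0.08, adjusted p = 0.0214, limma), a call that was lost without any one of the 8 arrays, with adjusted p-values of 0.0701 to 0.113 at a difference of 0.59 to 0.70.

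AKR1C1 and AKR1C3, the near paralogs of AKR1C2, were higher by 0.09 and 0.09 without IL-13, and by 0.37 (adjusted p = 0.624, limma) and 0.22 with it. The AKR1C genes are similar enough in sequence that their probes may share signal, and the windows around the STAT6 motif of AKR1C1 and AKR1C2 were the same 42 bases. AKR1B10, which clears retinal and lipid aldehydes, was lower instead, at 7.64 and 7.69, 7.51 and 7.55, 7.38 and 7.36, and 6.96 and 6.95 in the order of groups used above. It was lowest where knockdown and IL-13 were combined and fell there by 0.71 against shSCR (− IL-13) cells (SE 0.10, 95% interval −0.93 to −0.48, adjusted p = 0.0375, limma), which is under 2-fold. Leaving out any one of the 8 arrays ended that call, with adjusted p-values of 0.0844 to 0.261. AKR1B1, the aldose reductase of the polyol pathway, was at 8.92 and 8.69 in shSCR (− IL-13) and at 8.42 and 8.31 in knockdown (− IL-13) cells, a difference of −0.44 (adjusted p = 0.394, limma) that was −0.19 with IL-13.

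Among the other detoxification and heme enzymes, NQO1, HMOX1 and OSGIN1 differed by 0.16 or less between the lines. NQO1, a quinone reductase, was at 10.66 to 10.73 in shSCR cells and at 10.78 to 10.92 in knockdown cells, so that the lines did not overlap, with a difference of 0.14 without IL-13 (95% interval −0.10 to 0.38) and 0.16 with it (−0.08 to 0.40). HMOX1, the heme oxygenase, was at 5.28 to 5.51 in shSCR cells and at 5.17 to 5.42 in knockdown cells, with differences of 0.06 (−0.21 to 0.33) and −0.16 (−0.44 to 0.11). OSGIN1, an oxidative stress-induced growth inhibitor, differed by −0.05 and 0.05. The intervals of NQO1, HMOX1 and GCLM exclude a doubling in either direction in both comparisons.

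The thioredoxin branch, which reduces protein disulfides and peroxiredoxins, had no member past the adjusted threshold. TXNRD1, thioredoxin reductase, was at 9.15 and 9.35 in shSCR (− IL-13), at 9.50 and 9.67 in shSCR (+ IL-13), at 9.50 and 9.43 in knockdown (− IL-13) and at 9.67 and 9.54 in knockdown (+ IL-13) cells. Its lowest values were the 2 of mock-treated shSCR cells, and the IL-13 difference there was 0.33 (95% interval 0.05 to 0.62, adjusted p = 0.694, limma). TXN, thioredoxin itself, differed by −0.12 and −0.01 between the lines, and PRDX1, a peroxiredoxin, by −0.08 and −0.12. The 2 features of SRXN1, which repairs overoxidised peroxiredoxins, disagreed. The RefSeq-based one differed by −0.23 without and 0.06 with IL-13, and the one built on a cDNA by 0.43 (adjusted p = 0.521, limma) and 0.53.

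Enzymes that supply NADPH differed by 0.26 or less between the lines in either treatment. TALDO1, transaldolase, differed by −0.26 and −0.15, TKT, transketolase, by −0.22 and −0.15, PGD, phosphogluconate dehydrogenase, by 0.17 and −0.02, and ME1, malic enzyme, by 0.12 and 0.15. ME1 and PGD carry the response element core. GSTP1, a cytosolic glutathione transferase that also carries it, was at 10.11 and 9.65 in shSCR (− IL-13) and at 9.37 and 9.48 in knockdown (− IL-13) cells, a difference of −0.46 (adjusted p = 0.466, limma). With IL-13 the GSTP1 difference was −0.08, and array A of shSCR (− IL-13) was the highest of the 8. GSTM3 differed by −0.13 and −0.11 and MGST1, the microsomal transferase, by 0.07 and 0.08.

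CBR1, a carbonyl reductase, was at 6.59 and 6.47 in shSCR (− IL-13) and at 5.97 and 6.23 in knockdown (− IL-13) cells, a difference of −0.43 (adjusted p = 0.382, limma), and it differed by 0.01 with IL-13. EPHX1, microsomal epoxide hydrolase, differed by 0.10 and −0.03. CAT, catalase, which breaks down hydrogen peroxide without glutathione, was at 9.31 and 9.16 in shSCR (− IL-13) cells and at 9.55 and 9.63 in knockdown (+ IL-13) cells, a difference of 0.35 (adjusted p = 0.359, limma).

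The transcripts of the regulators themselves differed by 0.28 or less between the lines. NFE2L2 was at 9.49 and 9.55 in shSCR (− IL-13), at 9.62 and 9.58 in shSCR (+ IL-13), at 9.69 and 9.63 in knockdown (− IL-13) and at 9.70 and 9.68 in knockdown (+ IL-13) cells. The knockdown arrays were all higher, by 0.14 (95% interval −0.09 to 0.37) without and 0.09 with IL-13. NRF2 is controlled mainly through its protein, which the arrays do not measure. KEAP1 was at 6.56 and 6.35, 6.05 and 6.16, 6.10 and 6.24, and 6.20 and 6.51 in the same order, lower with IL-13 in shSCR cells by 0.35 on the log2 scale (difference −0.35, adjusted p = 0.72, limma) and not in knockdown cells.

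**Figure D2:**
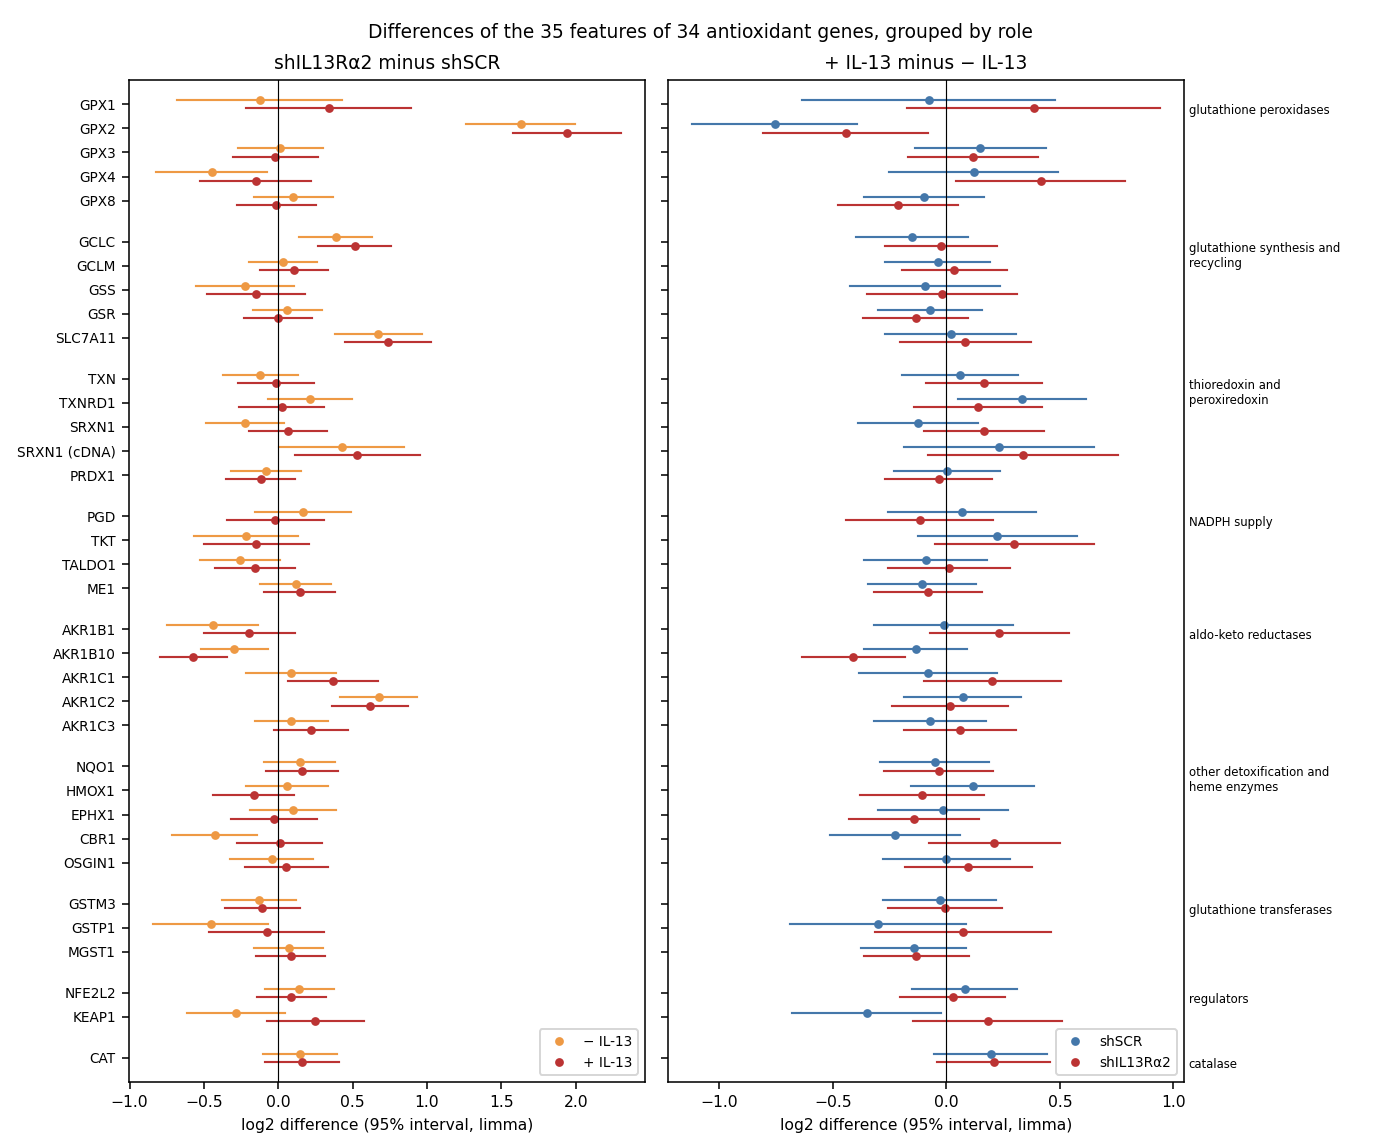
Log2 differences with 95% intervals from limma for the 35 features of the 34 genes, grouped by role, between the lines on the left (without IL-13 in orange, with IL-13 in red) and between IL-13 and mock treatment on the right (shSCR in blue, knockdown in red). GPX2 lies at 1.63 and 1.94 on the left, and SLC7A11, AKR1C2, GCLC and the cDNA feature of SRXN1 are the others whose intervals are above 0 in both comparisons of the lines.

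Counted over the whole set, few members passed, and those with the widest differences went in both directions. In the knockdown without IL-13, 1 of the 35 features was called at an adjusted p under 0.05 and a fold change above 2, and it was GPX2, which the choice of the set had fixed. Of all features, 0.0652% were called. On leaving out any one of the 8 arrays, no member was called, while the GPX2 difference stayed at 1.47 to 1.79. At an unadjusted p under 0.05, 10 members stood out where the share of all features was 9.51%, that is 28.6% of the members, and among features above the median level of the arrays 10 of 33 did, beside 11.9%. They were 5 higher (AKR1C2, GCLC, GPX2, SLC7A11 and the cDNA feature of SRXN1, where 4.28% of all features were) and 5 lower (AKR1B1, AKR1B10, CBR1, GPX4 and GSTP1, where 5.23% were). The median member differed by 0.06, and the median feature by −0.01.

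Among IL-13-treated cells, GPX2 was again the only member called, beside 0.0515% of all features, and it stayed called only on leaving out 1 of the 2 shSCR (− IL-13) arrays. At an unadjusted p under 0.05 there were 7, or 20.0% of the members, beside 7.07% of all features, and 7 of 33 above the median level beside 7.39%. Here 6 were higher (AKR1C1, AKR1C2, GCLC, GPX2, SLC7A11 and SRXN1, beside 3.44%) and 1 was lower (AKR1B10, beside 3.63%). The median member difference was 0.02, and that of all features was 0.00. For the knockdown with IL-13 against shSCR (− IL-13) cells, which shares arrays with both, GPX2 was called beside 0.154% of all features, AKR1B10 also passed on the adjusted p alone beside 0.285%, and 8 members were under an unadjusted 0.05 beside 9.56%.

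The comparisons without and with IL-13 use different arrays of the same pair of lines. Of the 10 members under 0.05 without IL-13, 9 had the same sign with IL-13 and 6 were under 0.05 there too (60.0%). These 6 were AKR1B10, AKR1C2, GCLC, GPX2, SLC7A11 and SRXN1. Without GPX2, which was chosen on these differences, the share was 55.6%. It was 50.0% among the further genes of the same pathways described below, and 20.4% among all features so selected, which were not matched for level. The differences of the 35 features in the first comparison and in the second had a Pearson r of 0.88, and of 0.74 without GPX2. It was 0.33 over the further pathway genes and 0.24 over all features, across genes that are not independent of each other. These sets were not matched for level either, and 33 of the 35 member features were above the median level of all features. The members were also chosen with earlier results of these data known, so the r values carry no test. All 4 knockdown arrays lay above all 4 shSCR arrays for 7 members, AKR1C2, GCLC, GCLM, GPX2, NFE2L2, NQO1 and SLC7A11, beside 3.26% of all features. They lay below for 4, AKR1B10, GSTM3, PRDX1 and TALDO1, beside 3.87%. Of these, GSTM3 was dim, at 3.09 to 3.33 over all arrays. Its highest knockdown array was at 3.11 and its lowest shSCR array at 3.14. In the average over both treatments 3 members, AKR1C2, GPX2 and SLC7A11, had an adjusted p under 0.05, beside 0.446% of all features. With a variance prior that follows intensity and is robust to outlying variances, AKR1C2, GCLC and SLC7A11 also had an adjusted p under 0.05 in limma both without and with IL-13, where 0.899% and 0.484% of all features did.

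**Figure D3:**
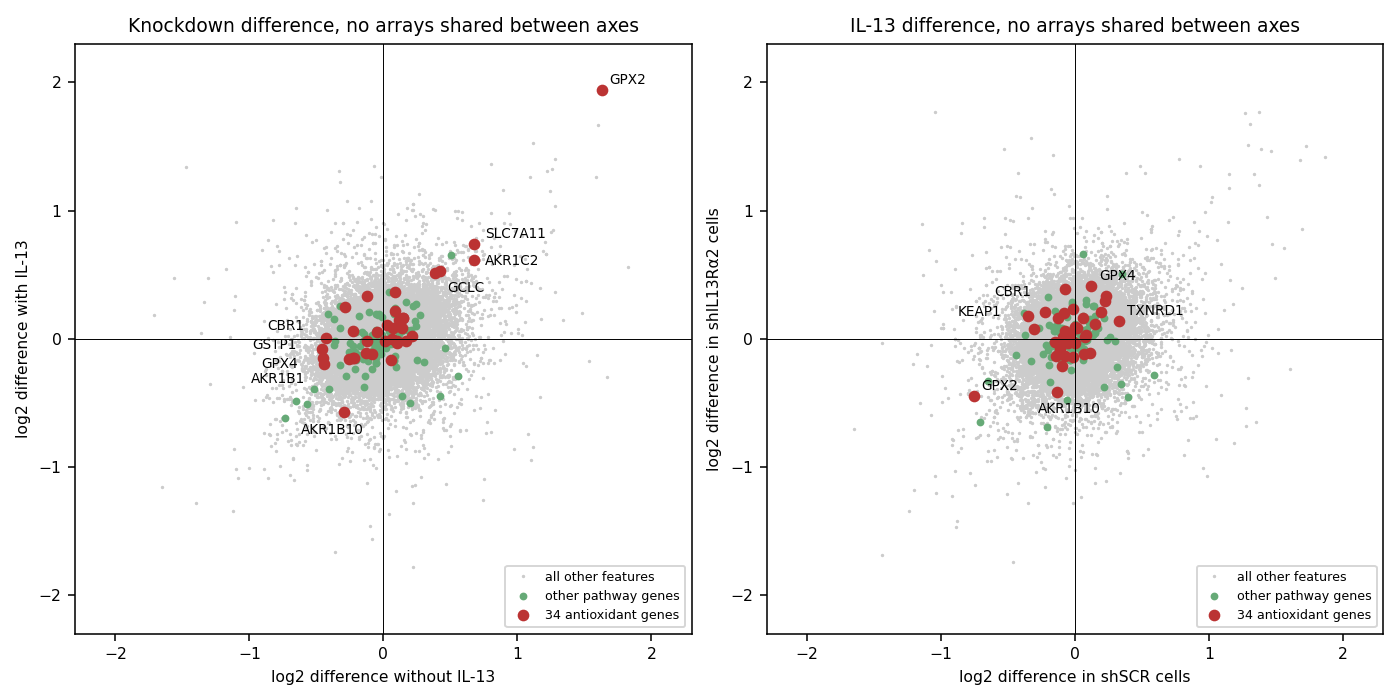
Log2 differences of every feature (grey), of the other pathway genes (green) and of the 34 antioxidant genes (red), with the knockdown difference without IL-13 against that with IL-13 on the left and the IL-13 difference in shSCR against that in knockdown cells on the right. The axes leave out 1 feature on the left and 2 on the right, none of them a member. GPX2 lies far along the diagonal on the left, SLC7A11, AKR1C2 and GCLC lie between it and the main cloud, and on the right the members other than GPX2 lie within the cloud.

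The share of members that differed with IL-13 was close to that of all features. No member was called in shSCR cells, beside 0.0583% of all features, or in knockdown cells, beside 0.0618%. At an unadjusted p under 0.05 there were 3 in shSCR cells (GPX2, KEAP1 and TXNRD1), or 8.57% of the members beside 6.79% of all features. In knockdown cells there were 3 (AKR1B10, GPX2 and GPX4), or 8.57% beside 6.93%, and GPX2 was the only one in both. GPX4 was higher with IL-13 in knockdown cells by 0.41 (adjusted p = 0.692, limma), and AKR1B10 was lower by 0.41 on the log2 scale (difference −0.41, adjusted p = 0.441, limma). In shSCR cells the widest differences after those of GPX2, KEAP1 and TXNRD1 were −0.30 for GSTP1, 0.23 for the cDNA feature of SRXN1, −0.22 for CBR1 and 0.22 for TKT, all with intervals that hold 0. The median member differed by −0.04 in shSCR and by 0.04 in knockdown cells.

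The interaction, which asks whether IL-13 acted differently in the 2 lines, passed an adjusted p under 0.05 for no feature in limma (0.0% of all features). At an unadjusted 0.05 it held 2 members, CBR1 with 0.44 and KEAP1 with 0.53, beside 4.47% or 1304 of all features. For GPX2 the interaction was 0.31 (95% interval −0.20 to 0.83).

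Further genes of the same pathways, 92 of the 93 listed, with 99 features, had a median difference of −0.04 in the knockdown without IL-13 and of −0.03 with IL-13. No feature of theirs was called in any of the 6 comparisons. At an unadjusted p under 0.05 without IL-13 there were 4 higher and 10 lower, where 4.28% and 5.23% of all features were. Together these made 14.1% of the 99 features, beside 9.51% of all features. Averaged over both treatments, 2 passed the adjusted threshold, beside 0.446% of all features, and both were lower. All 4 knockdown arrays lay below all 4 shSCR arrays for both, beside 3.87% of all features. HTATIP2, an oxidoreductase, was at 9.52 to 9.61 in shSCR and at 8.80 to 9.00 in knockdown cells and fell by 0.68 on the log2 scale (difference −0.68, adjusted p = 0.0159, limma). PRDX5, a peroxiredoxin of mitochondria and peroxisomes, was at 9.36 to 9.69 in shSCR and at 8.89 to 9.05 in knockdown cells (difference −0.57, adjusted p = 0.0329, limma). Neither overlapped between the lines, and both calls were lost on leaving out any one array, with adjusted p-values of 0.0646 to 0.0965 for HTATIP2 and 0.0916 to 0.148 for PRDX5.

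Of the others, those with the widest differences included several glutathione transferases. GSTA4, which conjugates lipid aldehydes, differed by −0.71 with IL-13 in shSCR cells and by −0.65 in knockdown cells, and by −1.22 from shSCR (− IL-13) to knockdown (+ IL-13) cells (adjusted p = 0.0647, limma). GSTA1 and GSTT1 differed by −0.65 and 0.59 with IL-13 in shSCR cells, and GSTA2 and PGLS by −0.69 and 0.66 in knockdown cells. Their replicates were wide apart in some groups. GSTA1 was at 3.66 and 4.08 in shSCR (+ IL-13) cells, and GSTT1 at 3.13 and 3.85 in shSCR (− IL-13) cells. In knockdown (+ IL-13) cells GSTA2 was at 3.35 and 2.81, and PGLS at 5.23 and 4.74. MAFF, a small MAF partner of NRF2, was higher by 0.56 in the knockdown without IL-13, with an interaction of −0.85, and SESN3, a sestrin, by 0.66 in the knockdown with IL-13. BLVRA, biliverdin reductase, differed by −0.63 from shSCR (− IL-13) to knockdown (+ IL-13) cells (adjusted p = 0.231, limma). None of these passed an adjusted p under 0.05.

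The genes whose levels over the 8 arrays were most like those of GPX2, by Pearson r among 22076 features with a symbol, were UGDH (0.987, one of the other pathway genes), RHOBTB3 (0.986), UNC5C (0.982), NCOA7 (0.976) and MLL5 (0.974). UGDH makes the UDP-glucuronic acid used in detoxification, UNC5C is a netrin receptor, and NCOA7 is a nuclear receptor coactivator. They followed the order of the GPX2 groups on a smaller scale. UGDH ran from 9.00 to 9.40, with all 4 knockdown arrays above all 4 shSCR arrays and differences of 0.24 without and 0.27 with IL-13, RHOBTB3 from 6.84 to 7.81, and UNC5C from 4.50 to 5.38. Among the members, GCLC (0.961, rank 19), AKR1C2 (0.906, rank 128) and NQO1 (0.895, rank 163) were the most alike. As the lines form 2 clusters of arrays, the separation of the lines enters r, which describes likeness and is given with no test.

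**Figure D4:**
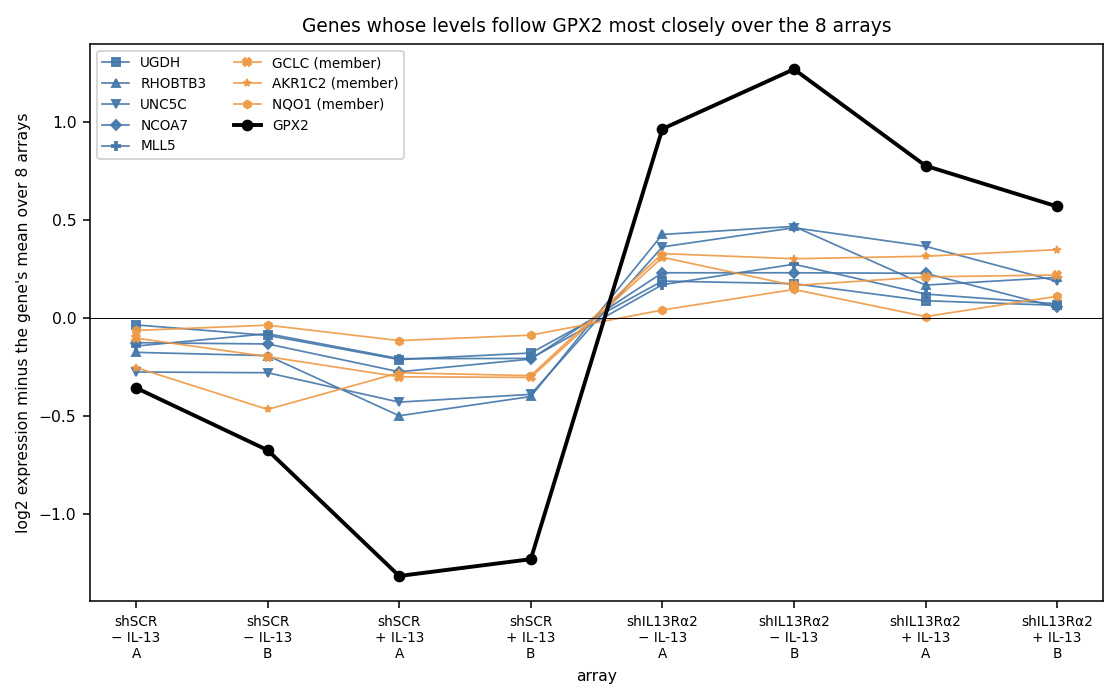
Log2 expression on each of the 8 arrays, minus the mean of the gene, for GPX2 (black), for the 5 genes most like it (blue) and for the 3 members most like it (orange). All 9 are below their mean on the 4 shSCR arrays and above it on the 4 knockdown arrays, and GPX2 has the widest range, from 4.95 to 7.53 before centring.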

How the data were processed

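Total RNA of MIV-Luc cells was hybridised by the authors to Affymetrix arrays, 2 per condition, which the labels name as Human Exon 1.0 ST. The table's 33297 features are about as many as a gene-level array has, so the array type, and how many probes each value summarises, is uncertain. The deposited values are log2 expression levels, one per gene-level feature, that the authors made with Affymetrix Expression Console 1 (robust multi-array averaging, over core exons per the labels). This step fixes background, scaling and probe summary, so that probe effects, cross-hybridisation between paralogs and compression of low signals remain in the values and precision is set by there being 2 arrays per group. The genome build is not given in the sources used here. Columns name the group and not the replicate number of the labels.

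Of 33297 features, 4156 controls were left out. All 29141 others were fitted with limma 3.58.1 in R 4.3.3, with 4 group means over 8 arrays (4 residual and 3.86 prior degrees of freedom), and p-values were adjusted by Benjamini-Hochberg over all features. A call needed an adjusted p under 0.05 and a fold change above 2, as in the methods. The average of the knockdown over both treatments was added after the data were seen. The fit was tested on simulated data. Genes and lists were chosen with earlier results of these data known. Members were described in full. Of the other pathway genes, those with an adjusted p under 0.05 were named, or otherwise the 3 with the largest difference per comparison at an unadjusted p under 0.05. Promoters came from RefSeq (GRCh38.p14), and were searched over 250 bases. Alternatives were other tests, thresholds, filters, scalings, variance priors and each array left out. No pair of arrays held identical values.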

Additional observations from a re-analysis of the deposited data

How the results depend on the processing

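With 2 arrays a group, calls of single genes depended on how the spread was estimated. GPX2 was chosen by its difference between the lines on these arrays, and its compared groups did not overlap. Leaving out an array could therefore not reverse its direction, and only the size of its differences could move. The log2 difference of GPX2 between the lines stayed at 1.47 to 1.79 without IL-13 and at 1.84 to 2.05 with it on leaving out each array in turn, and its IL-13 difference at −0.92 to −0.60 in shSCR and −0.60 to −0.29 in knockdown cells. The number of members called, 1 in each comparison of the knockdown, was 0 with limma on the 4 arrays compared only and 0 by the methods' test after adjustment, in the knockdown without IL-13, with IL-13 against mock-treated shSCR, and among IL-13-treated cells. Without any one array it was 0 to 0 in the first and in the second of these, and 0 to 1 in the last. At a fold change above 1.5 or with no fold threshold it was 2 for knockdown plus IL-13 against mock-treated shSCR and 3 for the knockdown averaged over both treatments. With no fold threshold, 0.285% and 0.446% of all features passed, in the same order.

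With a variance prior that follows intensity and is robust to outlying variances, set together, the members under an unadjusted 0.05 numbered 6 for IL-13 in shSCR cells, 8 for IL-13 in knockdown cells and 18 for the averaged knockdown. The share of all features at that threshold was not taken under this prior, so these counts have no background beside them. At an adjusted p under 0.05 in limma, the averaged knockdown went from 0.446% of all features to 2.25% under this prior. Under that prior 4 members (AKR1C2, GCLC, GPX2, SLC7A11) had an adjusted p under 0.05 in the knockdown without IL-13, where 0.899% of all features did, and 5 (with AKR1B10) among IL-13-treated cells, where 0.484% did. The interaction held 1 member with each array shifted to one median. No share of all features was taken for this count, or for those with an array left out that follow. Leaving out arrays gave 1 to 4 members under an unadjusted 0.05 for IL-13 in shSCR cells, 1 to 4 for IL-13 in knockdown cells, 0 to 3 for the interaction, 5 to 10 for the knockdown without IL-13 and 7 to 11 for the averaged knockdown. The median differences of the members moved by less than 0.105 under every alternative run. That is the SD of the members' median level between arrays of a group. All of these median differences were themselves smaller in size, so this could not show whether they kept their size or sign. Without array A of shSCR (− IL-13), for example, the median in the knockdown without IL-13 went from 0.06 to 0.02. The cause of these moves was not tested, other than that fewer arrays leave fewer degrees of freedom. No paired analysis was possible because the columns carry none of the replicate numbers of the labels.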
